A study of Mus musculus with 4 samples.

Results

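The serpins are a family of protease inhibitors and of proteins that share their fold. Genes were taken into the family where the platform annotation gave a probe set 1 gene symbol that starts with Serpin, a clade letter from a to i and a number, and each gene was read from its brightest probe set, the one with the highest mean log2 signal after values under a floor of 64.8 units were set to it. Probe sets under the floor on all arrays tie by this rule, and the first by name was then taken, which for Serpinb1a and Serpinb12 was the dimmer before flooring. This gave 40 of the 18193 singly named genes, from 56 probe sets. All 40 matched a RefSeq gene by Entrez ID under the same symbol, and 1 of them, Serpina4-ps1, is annotated there as a transcribed pseudogene.

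An inhibitory serpin presents an exposed loop to a protease. The protease cuts the loop, stays bound to it, and is carried across the serpin as the loop folds into the body of the protein, which destroys both molecules. Hepatocytes secrete most of the serpins of blood plasma, which hold back clotting, fibrin breakdown, complement and the proteases of neutrophils, while clade B serpins lack a classical signal peptide and act mostly inside cells. Some members inhibit nothing and carry hormones or assist collagen folding instead.

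Livers of 2 groups of mice were compared on 4 single-colour Affymetrix arrays, and all mice carried a floxed Met gene (genotype Metff/ff:ERCre+/+) with a Cre recombinase that tamoxifen switches on. In the delta MET + EGFRi group tamoxifen was injected on 5 days to delete exon 16 of Met, the hepatocyte growth factor receptor, and canertinib, an EGFR inhibitor, was given in the diet after 4 days of rest, with a target of 80 mg/kg/day. Control littermates received corn oil alone and the same rest, so that the effects of deletion, tamoxifen and canertinib cannot be told apart. Livers were taken at day 7 and day 10, and 1 array was run on pooled RNA per group and day, so that n = 2 arrays per group, of different days. The labels call the disruption systemic, so Met was targeted outside the liver as well, and they give neither the number of animals per pool nor their age or sex.

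The deposited values are MAS5 signals, a linear brightness per probe set. Array medians lay between 210.5 and 223.9 units, and log2 signals of pairs of arrays correlated with r from 0.890 to 0.913 across probe sets. Met read 2433 and 2829 units in delta MET + EGFRi livers at day 7 and day 10, against 975.5 and 1271 in control livers, and the position of its probes relative to exon 16 was not used here, so this does not check the deletion. The hepatocyte gene Alb read 71295 units or more on every array, and the summed signal of 11 hepatocyte markers was 543344 and 451799 units in delta MET + EGFRi livers, against 458823 and 455058 in control livers. In bulk liver RNA, fewer cells of a type and less RNA per cell cannot be told apart.

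Of the 40 serpin genes, 21 lay above 200 units on all 4 arrays, 6 on some arrays and 13 on none. The 23 genes that exceeded the 50th percentile of probe sets in mean log2 signal (204.3 units) entered limma's test, in which p-values were adjusted by Benjamini-Hochberg over all 11993 genes tested. All 23 also lay above that line by the mean of either group alone. Clade A held 10 of the 21 genes above 200 on all arrays and clade B 5, while clades C, D, G and H held 1 each and clade F 2. Of the genes above 200 on all arrays Serpina3i had the lowest value on any 1 array, 251.6 units, and Serpini1, with a lowest signal of 191.9, lay just under. Serpinb8, with a highest signal of 207.3 units, just passed 200 on 1 array, and Serpinb5, at 197.8, passed on none.

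**Figure D1:**
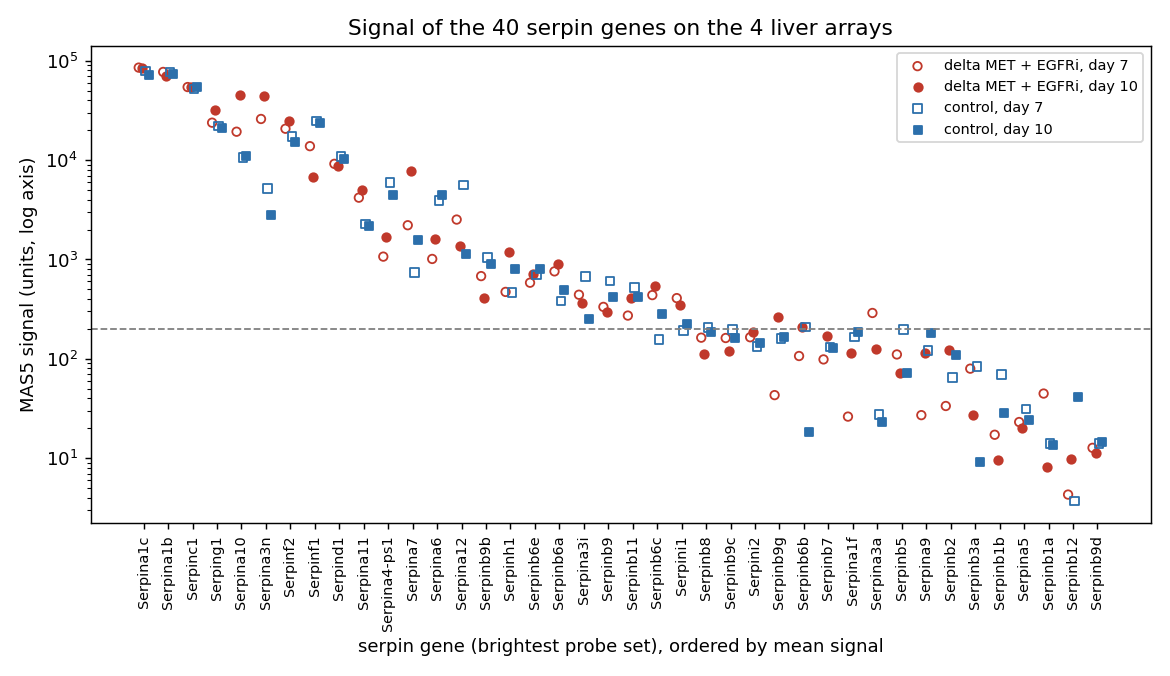
MAS5 signal (log axis) of the 40 serpin genes, ordered by mean signal, with 1 point per array: red circles are delta MET + EGFRi livers and blue squares control livers, open at day 7 and filled at day 10. The dashed line marks 200 units. The 3 brightest genes stand together at 51769 units or more on every array, whereas the red and blue points of Serpina3n lie apart.

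In the delta MET + EGFRi livers Serpina3n, an acute phase inhibitor that in mice blocks granzyme B and neutrophil proteases, rose 8.90-fold, and it was the only serpin to pass the test. Serpina7, Serpina10 and Serpina11 were higher and Serpina6, Serpinf1 and the pseudogene Serpina4-ps1 lower at both days without passing. The serpins with the highest signals, Serpina1b, Serpina1c and Serpinc1, differed by at most 0.24 on the log2 scale at either day.

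Promoters are shown for the 4 of these 7 genes that the RefSeq promoter table holds, 3 higher and 1 lower. The 7 are not simply the largest differences. Serpinb6c (log2 difference 1.21) lay above Serpina11 (1.03), and its window, not shown, matches none of the 5 motifs below. Each window runs from 250 bases before to 50 after the annotated start, 5′ to 3′ on the gene's strand, in build GRCm38.p6. Capitals mark matches on either strand to any of 5 motifs: TTCNNNGAA (STAT), TTGCNNAA (C/EBP), GTTAAT (an HNF1 half-site), GAANNTTC (heat shock factor), and the NF-kB motif of GGG, any 3 bases and TTCC. No marked stretches overlap in these 4 windows. The windows lie at chr12:104406458-104406757 (plus strand) for Serpina3n, chr12:103989908-103990207 (minus strand) for Serpina11, chrX:139085187-139085486 (minus strand) for Serpina7 and chr11:75422574-75422873 (minus strand) for Serpinf1.

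Serpina3n: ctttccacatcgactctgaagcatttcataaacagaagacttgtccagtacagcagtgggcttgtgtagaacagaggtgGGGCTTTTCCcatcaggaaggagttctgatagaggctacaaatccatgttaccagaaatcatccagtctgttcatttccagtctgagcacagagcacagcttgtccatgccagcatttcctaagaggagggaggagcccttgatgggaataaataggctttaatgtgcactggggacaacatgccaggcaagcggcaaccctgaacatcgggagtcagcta

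Serpina11: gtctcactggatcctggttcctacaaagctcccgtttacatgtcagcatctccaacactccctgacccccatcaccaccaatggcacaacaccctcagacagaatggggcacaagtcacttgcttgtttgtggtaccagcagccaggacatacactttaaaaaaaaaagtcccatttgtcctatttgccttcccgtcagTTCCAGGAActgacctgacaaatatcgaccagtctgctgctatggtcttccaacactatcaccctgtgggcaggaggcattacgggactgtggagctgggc

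Serpina7: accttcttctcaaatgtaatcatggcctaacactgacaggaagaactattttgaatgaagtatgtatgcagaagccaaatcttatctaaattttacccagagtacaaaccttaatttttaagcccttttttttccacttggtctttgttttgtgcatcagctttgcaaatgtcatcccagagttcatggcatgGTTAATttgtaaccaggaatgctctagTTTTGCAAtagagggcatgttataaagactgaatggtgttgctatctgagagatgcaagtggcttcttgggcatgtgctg

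Serpinf1: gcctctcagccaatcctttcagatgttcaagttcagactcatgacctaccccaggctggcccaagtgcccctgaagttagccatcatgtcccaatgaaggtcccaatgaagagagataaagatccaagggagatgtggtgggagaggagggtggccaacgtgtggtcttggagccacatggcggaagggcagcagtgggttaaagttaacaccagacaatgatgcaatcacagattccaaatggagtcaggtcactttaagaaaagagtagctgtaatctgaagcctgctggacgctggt

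The Serpina3n window holds 1 NF-kB match, which begins 171 bases before the start, and none of the other 4 motifs. The Serpina11 window holds 1 STAT match, TTCCAGGAA, beginning 51 bases before the start, and that of Serpina7 a C/EBP match 30 bases and an HNF1 half-site 57 bases before it. The Serpinf1 window matched none of the 5, which says only that these letters are absent from it. Among the 23 serpins above 200 units on at least 1 array that have a window, 3 hold the STAT motif (Serpina11, Serpina3i and Serpinb6a) and 3 the NF-kB motif (Serpina12, Serpina3i and Serpina3n). Of the first windows of all 27025 genes in the table, 8.47% hold the STAT motif and 5.52% the NF-kB motif. The C/EBP motif stood in 4 of the 23 windows (10.8% of all genes), the HNF1 half-site in 4 (7.20%) and the heat shock motif in 1 (7.95%). These matches are descriptions of letters, not binding sites.

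The antitrypsins, Serpina1b and Serpina1c, are the main plasma inhibitors of neutrophil elastase. Serpina1c read 85335 and 84260 units in delta MET + EGFRi livers at day 7 and day 10, against 78604 and 71503 in control livers, a log2 difference of 0.18 ± 0.21 (SE, limma, adjusted p = 0.780). Serpina1b read 77165 and 70101 units, against 77471 and 72762 in control livers (log2 difference -0.03 ± 0.21, adjusted p = 0.971). By these probe sets both genes thus kept nearly the same signal on all arrays. A dimmer probe set that names both together with Serpina1e read lower in delta MET + EGFRi livers (2044 and 1122 units, against 3754 and 4556 in control livers). Serpina1c ranked 2 and Serpina1b 6 among all probe sets by mean signal, near the highest value of the table (89172 units), where an array may no longer follow RNA amount. Whether it did was not tested. The probe set of Serpina1b has the platform suffix x, which marks probes that can also bind related transcripts, and the closely related antitrypsin genes may share it.

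Serpina3n is the mouse gene nearest in role to human antichymotrypsin. It read 25945 and 44105 units in delta MET + EGFRi livers, against 5176 and 2789 in control livers. Both delta MET + EGFRi arrays lay above both control arrays, by 5.01-fold at day 7 and 15.8-fold at day 10. The mean was 35025 ± 12841 units in delta MET + EGFRi livers and 3982 ± 1688 in control livers (SD, n = 2 each). The log2 difference over both days was 3.15 ± 0.38 (SE, limma, adjusted p = 0.0277), so that 1 of 23 tested serpins was called higher, against 0.375% of all tested genes, and 0 were called lower, against 0.283%. At an unadjusted p under 0.05, 7 serpins were higher and 4 lower by limma, against 12.1% of all tested genes in either direction. The estimate stayed at 3.15 but lost the call when day entered as a block (adjusted p = 0.0895), without the intensity trend (0.0726), with a gene's probe sets averaged (0.0602) and with no filter on dim genes (0.304). It was also lost without the day 7 control array (log2 difference 3.60, adjusted p = 0.0793) and without the day 10 control array (2.71, adjusted p = 0.221). A pair of related genes of the same cluster were dimmer. Serpina3i read 441.6 and 361.5 units, against 674.3 and 251.6 in control livers, and the groups overlapped. Serpina3a read 289.3 and 124.1 units, against 27.4 and 22.9 in control livers, which lie under the floor, so that it was at least 4.46-fold higher at day 7 and at least 1.92-fold higher at day 10, without a test.

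**Figure D2:**
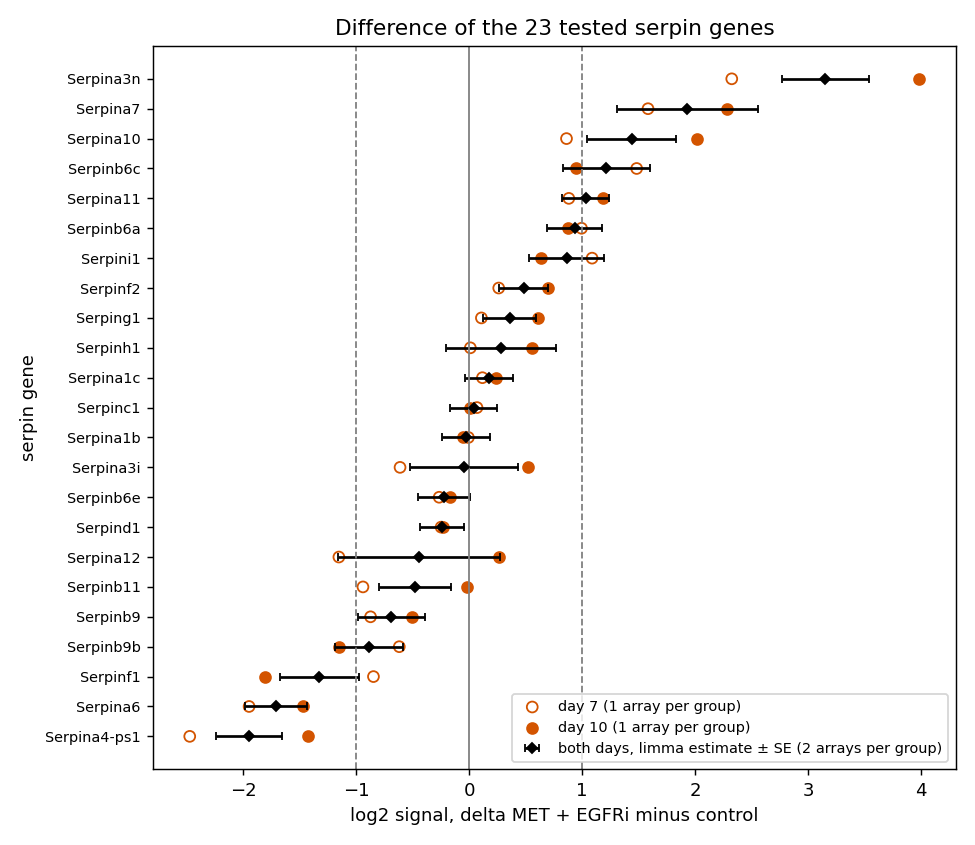
Log2 signal of delta MET + EGFRi minus control livers for the 23 tested serpins. Open circles are day 7 and filled circles day 10 (1 array per group), diamonds with bars the limma estimate ± SE over both days (2 arrays per group), and dashed lines 2-fold. Serpina3n lies farthest to the right at 3.15 and Serpina4-ps1 farthest to the left at -1.95.

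Among hormone carriers, the corticosteroid carrier and the thyroxine carrier differed in opposite directions. Serpina6, corticosteroid-binding globulin, read 1012 and 1589 units in delta MET + EGFRi livers, against 3901 and 4411 in control livers. It was 3.85-fold lower at day 7 and 2.78-fold lower at day 10, and the groups did not overlap (log2 difference -1.71 ± 0.27 SE, limma adjusted p = 0.0641). Serpina7, thyroxine-binding globulin, read 2211 and 7692 units, against 737.3 and 1581 in control livers (log2 difference 1.93 ± 0.62, adjusted p = 0.303). It was 3.0-fold higher at day 7 and 4.86-fold higher at day 10, and it was also higher at day 10 than at day 7 in both groups, by 3.48-fold in delta MET + EGFRi livers and 2.14-fold in control livers. Serpina6 passed with the arrays scaled to equal medians (log2 difference -1.69, adjusted p = 0.0498). Among the partners of such carriers, the thyroxine carrier Ttr, the hormone receptors Nr3c1, Thra and Thrb and the non-inhibitory serpin relative Agt, angiotensinogen, 0 of 5 passed.

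Among the inhibitors of clotting 1 was higher and the others differed little. Serpina10, which in humans inhibits clotting factor Xa with protein Z as its cofactor, read 19317 and 44772 units in delta MET + EGFRi livers, against 10622 and 11047 in control livers. The groups did not overlap, and the log2 difference was 1.44 ± 0.39 (SE, limma, adjusted p = 0.236). The only probe set of Serpina10 carries the platform suffix s, which marks probes shared among transcripts. Proz, the protein Z gene, read 8451 and 4289 units, against 3884 and 4700 in control livers (log2 difference 0.49 ± 0.34, adjusted p = 0.619), so that the cofactor differed in sign between the days. Serpinc1, antithrombin, the main inhibitor of thrombin, read 54366 and 54270 units, against 51769 and 53842 in control livers. These 4 values differ by at most 1.05-fold within a day (log2 difference 0.04 ± 0.21, adjusted p = 0.957, and -0.17 with quantile normalization). Serpind1, heparin cofactor II, also an inhibitor of thrombin, read 9173 and 8815 units, against 10888 and 10370 in control livers (log2 difference -0.24 ± 0.20, adjusted p = 0.677).

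Serpinf2, alpha 2-antiplasmin, which blocks plasmin and so protects fibrin, read 20691 and 24475 units in delta MET + EGFRi livers, against 17244 and 15050 in control livers. Its groups did not overlap (log2 difference 0.48 ± 0.22 SE, limma adjusted p = 0.449). Serpinf1, pigment epithelium-derived factor, a secreted serpin that inhibits no protease and restrains vessel growth, read 13815 and 6764 units, against 24832 and 23660 in control livers. It was 1.80-fold lower at day 7 and 3.50-fold lower at day 10 (log2 difference -1.33 ± 0.35, adjusted p = 0.224), and a further probe set gave differences of -0.83 and -3.01. No protein-coding gene lies between Serpinf1 and Serpinf2 in the RefSeq gene table (GRCm38.p6), and they differed in opposite directions. Serping1, the C1 inhibitor of complement and the kallikrein system, read 23810 and 32314 units, against 22069 and 21182 in control livers (log2 difference 0.36 ± 0.24, adjusted p = 0.598).

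Serpina11, a clade A member, read 4188 and 4964 units in delta MET + EGFRi livers, against 2270 and 2185 in control livers. It was 1.84-fold and 2.27-fold higher at the 2 days and the groups did not overlap (log2 difference 1.03 ± 0.21 SE, limma adjusted p = 0.124). Serpina4-ps1 read 1068 and 1679 units, against 5926 and 4497 in control livers (log2 difference -1.95 ± 0.29, adjusted p = 0.0534). Its 2 further probe sets were lower too, by -1.79 and -2.52 on the log2 scale, and in the brightest it was 5.55-fold lower at day 7 and 2.68-fold lower at day 10. Serpina4-ps1 passed with the arrays scaled to equal medians (adjusted p = 0.0352), with the floor at the 40th percentile (0.0483) and with the filter at the 75th percentile (0.0486). Serpina12, vaspin, known as a secreted serpin of fat tissue, read 2521 and 1366 units, against 5602 and 1135 in control livers. The control arrays themselves were 4.94-fold apart, and the sign of its difference turned between the days (log2 difference -0.44 ± 0.72, adjusted p = 0.842).

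Along chromosome 12 the clade A genes stand in 1 row in which neighbours differed in direction. In the RefSeq gene table no protein-coding gene lies between Serpina10, which was higher at both days, and Serpina6, which was lower. Farther along the row Serpina11 was higher, and Serpina4-ps1 lower, with the dim Serpina9 (27.1 and 114.9 units in delta MET + EGFRi livers, against 120.9 and 182.1 in control livers) and Serpina12 between them. Serpina1f, dim as well, read 26.2 and 113.1 units, against 165.3 and 187.8 in control livers, and Serpina5, the protein C inhibitor, stayed under the floor on all arrays.

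**Figure D3:**
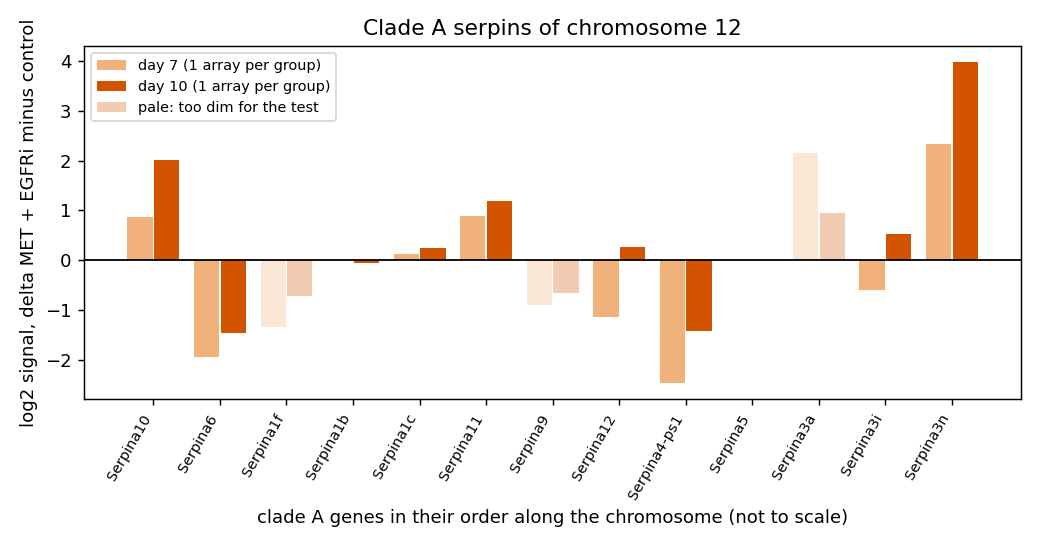
Log2 signal of delta MET + EGFRi minus control livers at day 7 (light) and day 10 (dark) for the 13 clade A genes of chromosome 12 in their order along it, not to scale, with genes too dim for the test in pale colour. Bars point both ways along the row, from -2.47 for Serpina4-ps1 at day 7 to 3.98 for Serpina3n at day 10, and Serpina5 has none because all its signals lie under the floor.

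Clade B serpins were dimmer, and none passed the test. Serpinb6a, whose human counterpart inhibits cathepsin G, read 758.7 and 896.2 units in delta MET + EGFRi livers, against 380.5 and 489.7 in control livers (log2 difference 0.93 ± 0.25 SE, limma adjusted p = 0.224). Its neighbour Serpinb6c read 437.7 and 544.6 units, against 156.5 and 282.8 in control livers (log2 difference 1.21 ± 0.39, adjusted p = 0.298). In both genes the groups did not overlap. In contrast Serpinb9, which protects cells from granzyme B, read 333.1 and 294.8 units, against 609.5 and 417.4 in control livers (log2 difference -0.69 ± 0.30, adjusted p = 0.434). The related Serpinb9b read 679.9 and 405.7 units, against 1043 and 901.0 in control livers (log2 difference -0.88 ± 0.30, adjusted p = 0.328). Thus Serpinb9 and Serpinb9b, the only tested members of the Serpinb9 group, lay lower at both days, while of the 3 tested Serpinb6 genes 2 lay higher and Serpinb6e lay slightly lower, at -0.22 ± 0.23 on the log2 scale. A probe set that names Serpinb9h, Serpinb9g, Serpinb9e and Serpinb9f was lower at day 7 (log2 difference -0.36) and higher at day 10 (0.63). Serpinb11 read 272.4 and 411.1 units, against 522.2 and 416.8 in control livers. The Serpinb6 and Serpinb9 genes are close relatives, and the probe set of Serpinb6c carries the suffix s and that of Serpinb6e the suffix x, which mark probes shared among transcripts.

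Serpinh1, a chaperone that folds collagen in the endoplasmic reticulum, read 471.3 and 1189 units in delta MET + EGFRi livers, against 467.5 and 809.6 in control livers, and its 2 probe sets disagreed in sign (log2 difference 0.28 ± 0.48 and -0.37). The brightest probe set of Serpinh1 carries the suffix x. Serpini1, neuroserpin, an inhibitor of tissue plasminogen activator, was 2.13-fold higher at day 7 and 1.56-fold higher at day 10 (log2 difference 0.86 ± 0.33 SE, limma adjusted p = 0.381). Of the 4 genes above 200 units on some arrays that were too dim for the test, Serpinb8, Serpinb6b, Serpinb9g and Serpina3a, no more than 2 arrays passed 200 units in any. Serpinb8 read 163.2 and 111.7 units, against 207.3 and 185.7 in control livers, and the signals of Serpinb6b ran from 18.4 to 211.2 and those of Serpinb9g from 43.1 to 261.8. The 13 genes at or under 200 units on all arrays, with signals from 3.7 to 197.8 units, were Serpinb9c, Serpini2, Serpinb7, Serpina1f, Serpinb5, Serpina9, Serpinb2, Serpinb3a, Serpinb1b, Serpina5, Serpinb1a, Serpinb12 and Serpinb9d.

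Compared day by day, with 1 array per group and no test, 4 of the 23 tested serpins were at least 2-fold higher in delta MET + EGFRi livers at day 7 (Serpina3n, Serpina7, Serpinb6c and Serpini1), against 4.60% of all tested genes. At day 7, 3 were at least 2-fold lower (Serpina4-ps1, Serpina6 and Serpina12), against 5.16%. At day 10, 4 were at least 2-fold higher (Serpina3n, Serpina7, Serpina10 and Serpina11), against 5.84%, and 4 lower (Serpinf1, Serpina6, Serpina4-ps1 and Serpinb9b), against 4.91%. At both days 2 were higher, Serpina3n and Serpina7, against 1.54%, and 2 lower, Serpina4-ps1 and Serpina6, against 1.14%. The serpins thus lay past 2-fold in both directions at shares above those of all genes, without a common direction. The median over these 23 log2 differences came to 0.01 for day 7 (-0.11 with quantile normalization, -0.12 with probe sets averaged and -0.04 with no filter) and 0.27 for day 10, beside -0.06 and 0.01 over all tested genes. Taken without sign, it came to 0.86 for day 7 and 0.64 for day 10, beside 0.35 and 0.34 over all tested genes. Both delta MET + EGFRi arrays lay above both control arrays in 11 of the 23, against 20.3% of all tested genes, and below them in 7, against 24.1%.

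Within the delta MET + EGFRi group, 3 tested serpins were at least 2-fold higher at day 10 than at day 7, Serpina7 (3.48-fold), Serpinh1 (2.52-fold) and Serpina10 (2.32-fold), against 3.84% of all tested genes. Serpinf1 was 2.04-fold lower at day 10, the only serpin past 2-fold in that direction, against 3.78%. Within the control group Serpina7 was 2.14-fold higher at day 10, against 2.05% of all tested genes, and Serpina12 (4.94-fold) and Serpina3i (2.68-fold) were lower, against 3.09%. The control signals of Serpina10 and Serpinf1 were 1.04-fold and 1.05-fold apart. Each of these values rests on 1 array per side.

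Among the proteases that serpins hold in check 1 passed the test. The list of clotting and fibrin breakdown proteases also holds Hgf, the ligand of Met and not a protease, and its activator Hgfac. Of the 14 tested genes of this list 0 passed and none was 2-fold apart in the same direction at both days. The median of their log2 differences came to -0.06 for day 7 and 0.27 for day 10, and the largest differences over both days were those of F7 (0.77 ± 0.25 SE, limma adjusted p = 0.314) and Klkb1, plasma kallikrein (-0.72 ± 0.33, adjusted p = 0.457). Of 7 complement proteases 0 passed (medians 0.17 and 0.03). Of 7 tested granule proteases 1 rose, against 0.375% of all tested genes, Prtn3, proteinase 3 of neutrophils, at 1541 and 4544 units, against 44.2 and 49.2 in control livers, which lie under the floor. It was at least 40.8-fold higher (adjusted p = 0.0130), but by its control mean it would not have passed the filter, so it entered the test only through the group in which it is high. Elane, neutrophil elastase, read 449.4 and 1078 units, against 738.7 and 724.4 in control livers.

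Among 23 tested protease inhibitors that are not serpins, 1 rose, against 0.375% of all tested genes, and 0 fell, with medians of 0.15 at day 7 and 0.29 at day 10. Itih3, a heavy chain of the inter-alpha-trypsin inhibitors, read 62377 and 66626 units in delta MET + EGFRi livers, against 21784 and 20975 in control livers (log2 difference 1.59 ± 0.21 SE, limma adjusted p = 0.0322). Its relative Itih4 was 2.26-fold higher at day 7 and 3.09-fold higher at day 10 (log2 difference 1.40 ± 0.23, adjusted p = 0.0735). Of 8 cofactors and receptors of serpins 0 passed (medians 0.23 and 0.16). Of 10 genes of acute phase cytokine signalling 3 rose, against 0.375% of all tested genes, the interleukin 1 receptor Il1r1 (20.8-fold) and the transcription factors Cebpd (4.18-fold) and Cebpb (2.98-fold), at adjusted p from 0.00128 to 0.0307. Il1r1 passed the filter only through the delta MET + EGFRi arrays, and Cebpd and Cebpb passed it by either group's mean. Socs3, Junb and Stat3 were also at least 2-fold higher at both days (1.54% of all tested genes were), with log2 differences of 3.05, 2.82 and 1.47 that did not pass.

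**Figure D4:**
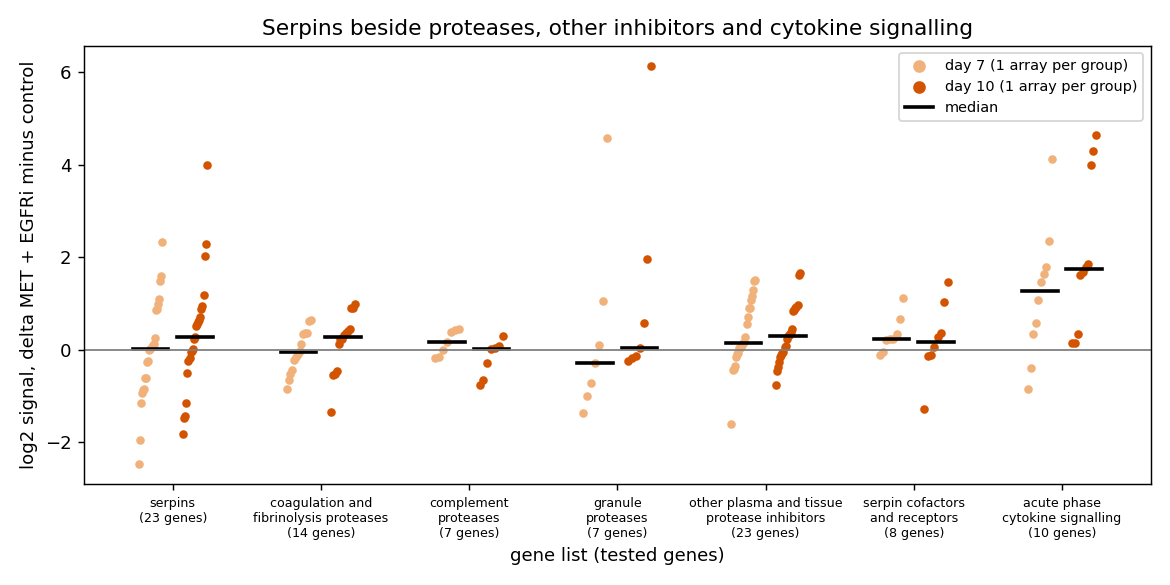
Log2 signal of delta MET + EGFRi minus control livers for each tested gene of 7 groups, at day 7 (light) and day 10 (dark), with black lines for the medians. The serpins spread to both sides of 0, from -2.47 to 3.98, and the genes of acute phase cytokine signalling have medians of 1.27 and 1.74.

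Markers of other cell types moved beside these differences. Of 13 tested macrophage and Kupffer cell markers 3 rose, Cd163, C1qc and Vsig4, against 0.375% of all tested genes, and the summed signal of the list was 52962 and 52952 units in delta MET + EGFRi livers, against 24826 and 14005 in control livers. Of 10 tested neutrophil markers 3 rose, Prtn3, S100a8 and S100a9, against the same 0.375%, with sums over the list of 11851 and 15140 units, against 4590 and 4578, and Cxcr2 and Camp, 2 markers of the list, never passed 200 units. Of 6 B and plasma cell markers 1 rose, Jchain, again against 0.375%, with sums of 12954 and 11147 units, against 5349 and 3613. Over both days the median log2 difference of this list was -0.08. Ighm, which did not pass, made up 9578 and 7611 units of the sums, against 2716 and 1017 in control livers. By their control means Prtn3, S100a9 and Jchain would not have passed the filter, so that they were tested only through the group in which they are high, while S100a8 and the 3 macrophage markers passed by either group's mean. The part of these cells in the signal of Serpina3n and of the Serpinb6 genes was not tested. No marker passed among 11 hepatocyte, 10 endothelial, 9 stellate cell and fibroblast, 5 platelet, 5 T and NK cell, 3 mast cell and 2 cholangiocyte markers tested.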

How the data were processed

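Per the labels, liver RNA pooled per group and day was hybridised to single-colour Affymetrix mouse arrays. The submitters' processing notes name MAS5, with a version not given in the sources used here. As deposited, each probe set has a linear intensity (signal), and with the top and bottom 2% left out each array averaged about 500.0 units. Detection calls were not used here. Of 45101 probe sets 34945 carried 1 gene symbol. Signals under the 25th percentile (64.8) were set to it and log2 was taken. The comparison used R 4.3.3 and limma 3.58.1 (lmFit and eBayes, trend by intensity, no day term, 2 residual degrees of freedom, Benjamini-Hochberg adjusted p under 0.05). This fit was also run on simulated data, with a spread drawn from the fit itself and no day effect. That run therefore cannot show how the fit treats replicates of different days. Replicates are arrays of different days, so p-values measure the spread between these arrays, days included, and the number of arrays limits all precision.

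The serpins, the 17 gene lists (10 of them marker lists) and the alternatives were chosen with earlier results of these data known. Named were serpins above 200 units on at least 1 array, with array values for those that passed, lay past 2-fold in 1 direction at both days or were among the 10 brightest, and genes of the other lists that passed or lay past 2-fold at both days. Marker lists are given by counts and sums with up to 3 genes each. Further serpins' array values, F7, Klkb1, Elane, Proz, Ighm, Cxcr2, Camp and the median of the B and plasma cell list were added after seeing the data. Promoters come from RefSeq (GRCm38.p6), which held 34 of the 40 genes. Python 3.11.15 with matplotlib 3.10.9 drew the figures.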

Additional observations from a re-analysis of the deposited data

Results flagged for a closer look

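In 4 serpins above 200 units on at least 1 array the difference between delta MET + EGFRi and control livers had opposite signs at day 7 and day 10, and the change between the days was not tested, since each rests on 1 array per group and day. The effect at day 10 minus that at day 7 was 1.42 on the log2 scale for Serpina12 (-1.15 at day 7, 0.27 at day 10) and 1.13 for Serpina3i (-0.61 and 0.52). It was at least 2.67 for Serpinb6b (-0.97 and at least 1.70) and at least 1.97 for Serpinb9g (-1.30 or lower and 0.67), which lay too low for the test. These are bounds because the day 10 control signal of Serpinb6b (18.4 units) lies under the floor. The same holds for the day 7 delta MET + EGFRi signal of Serpinb9g (43.1 units). Of the 23 tested serpins 21 had the same sign at both days, against 6935 of all 11993 tested genes. Opposite signs at the 2 days occurred in 42.1% of all tested genes.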

How the results depend on the processing

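Of 298 single values of the tested serpins under other settings 268 kept their direction and their side of the threshold, and the cause of the other shifts was not tested unless named. This count was partly fixed in advance, since an estimate cannot change without the intensity trend or with day as a block. Most serpins also started uncalled, while Serpina3n, the only one called, lost its call in several settings given above. No serpin was called higher without a filter on dim genes (0 of 18193 genes by limma, and more genes tested), with probe sets averaged, without the intensity trend or with day as a block (0 in each). Serpins called lower numbered 2 with arrays scaled to equal medians and at an adjusted p under 0.1, and 1 with a 40th percentile floor or a 75th percentile filter. Over all genes limma called 79, against 42 without the trend and with probe sets averaged, 47 with the block and 162 at an adjusted p under 0.1. With 1 array left out, 0 to 4 serpins were called higher and 0 to 4 lower. These fits assume that the lone array of a group varies like the other group. Without the day 7 delta MET + EGFRi array 8 of 23 serpins and 466 of 11993 genes passed (Serpina3n, Serpina7, Serpina10, Serpina11, Serpina4-ps1, Serpina6, Serpinb9b and Serpinf1), and without the day 10 one 4 serpins (Serpina3n, Serpina4-ps1, Serpina6 and Serpinf1) and 330 genes. Without the day 7 or the day 10 control array no serpin passed, with 26 and 24 genes called. At day 7 the counts past the size rule were 2 higher with a 75th percentile filter and 5 lower without a filter, 7 higher and 8 lower at 1.5-fold, and 1 higher at 3-fold. At day 10, 9 were higher at 1.5-fold and 1 lower at 3-fold. The day 10 median was 0.014 without a filter. Reversed signs, none in a called serpin, were -0.17 for Serpinc1 with quantile normalization, and for Serpinh1 -0.041 with its probe sets averaged and -0.37 in its other probe set. With 1 array left out the log2 difference ran from -1.59 to 0.71 for Serpina12, from -0.099 to 0.040 for Serpina1b, from -0.76 to 0.67 for Serpina3i and from -0.38 to 0.95 for Serpinh1.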

Other observations

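In 3 probe sets the annotation names several serpins, and they entered no gene count. That of Serpina1e, Serpina1c and Serpina1b read 2044 and 1122 units in delta MET + EGFRi livers at day 7 and day 10, against 3754 and 4556 in control livers, a log2 difference of -1.45 ± 0.32 over both days (SE, limma over probe sets, adjusted p = 0.171). The brightest probe sets of Serpina1b and Serpina1c did not differ in this way. That of Serpina1d and Serpina1a read 39026 and 34091 units, against 43260 and 41803, and that of Serpinb9h, Serpinb9g, Serpinb9e and Serpinb9f read 347.0 and 605.6 units, against 446.3 and 391.2. The summed signal of the 40 serpins was 346411 and 394027 units in delta MET + EGFRi livers, against 323687 and 302118 in control livers, and the 3 brightest genes made up 62.6% and 52.9% of it, against 64.2% and 65.6%.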
